A study of Capra hircus with 24 samples.

Results

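Dermal papilla cells of the primary hair follicles of female cashmere goats (Capra hircus) were compared between October, which the labels place in anagen (hair growth), and June, placed in early anagen (its beginning). The comparison uses 3 October and 3 June libraries, 6 of the 24 RNA-seq libraries of the series, chosen by their labels for follicle type, sex and month. The other 18 libraries are those of primary follicles of males and of secondary follicles of both sexes, again 3 for each month. The 6 October and June libraries of primary follicles of males, and the 6 of secondary follicles of females, served as the closest comparisons. All were made from total RNA of papilla cells of goat skin. The sources used here do not give the goats' age, breeding or number, nor how the cells were isolated or kept.

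The dermal papilla is a cluster of specialised fibroblasts at the follicle's base that sends growth signals to the surrounding epithelium, among them Wnt, BMP and FGF ligands. In cashmere goats the primary follicles produce the coarse guard hair and the secondary follicles the fine, seasonally grown cashmere. During anagen the epithelial matrix around the papilla divides and builds the hair shaft, and the papilla itself is usually rich in extracellular matrix and mostly slow to divide.

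Values are a normalised expression signal, 1 per gene and library, that sums to between 970379 and 1022052 in the 6 libraries. The number of reads behind a value is unknown, so precision rests on the spread between libraries. Across the 13049 genes tested, r was 0.993 to 0.996 between libraries of one month and 0.975 to 0.981 between months. Genes are not independent replicates, and these r values only describe how alike the libraries were. The labels call the libraries biological replicates but do not name separate goats or cultures, so a p-value reflects no more than the library-to-library spread, which may be technical. The 13 mitochondrial genes took 9.14 to 9.75% of the signal in June and 10.3 to 10.8% in October. Month, follicle stage, season and collection changed together and cannot be told apart. In such bulk samples fewer cells of a type and less RNA per cell cannot be told apart either.

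RNA of fibroblast genes and of some papilla markers was present in both months. VCAN, the versican core protein, stood at 277 to 310 in June and 208 to 233 in October. PDGFRA, a receptor of dermal fibroblasts, stood at 272 to 298 and 182 to 213, and SOX2, a transcription factor of papillae of coarse hair types, at 10.6 to 13.9 and 11.4 to 13.1. Other papilla markers were weak: ALPL, the alkaline phosphatase used to stain papillae, did not exceed 2.44 in any library, and CORIN did not exceed 0.25. Some defining markers of other skin cells were at or near 0 in the 6 libraries: the leukocyte gene PTPRC did not exceed 0.02, the melanocyte gene DCT and the endothelial gene CDH5 were listed at 0, and SOX10, of melanocytes and Schwann cells, did not exceed 0.03. Other members of these lists were present. In June the melanocyte list summed to 12.0 to 14.5, mostly MITF (9.16 to 11.8) and PMEL (2.59 to 2.65), and in October to 9.67 to 12.6. Schwann cell markers summed to 49.6 to 53.2 and 42.4 to 46.8, mostly S100B and MBP, and pericyte markers to 93.4 to 102 and 55.3 to 71.4, mostly CSPG4 and NOTCH3. Their part in the results was not tested. Keratins of epithelial cells are described with the rises. For sex, 6 genes named only by a locus number were chosen after their values were seen, for the widest gap between male and female groups. Together they summed to at most 0.05 in each of the 6 libraries and to at least 110 in each male library of the series. This split follows from the choice and is no independent check of the sex labels.

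In October 6295 of the 13049 tested genes differed from June at an adjusted p under 0.05 (limma, Benjamini-Hochberg), which is 48.2%, and such genes are called below. Of them 2959 were higher in October (22.7%) and 3336 lower (25.6%). With each library set to a common total the split turned to 3238 higher and 3067 lower, so which direction held the majority depended on the scaling. Most differences were small, with a median size of 0.35 on the log2 scale among called genes and a median of -0.00 over all tested genes. Differences of at least 2-fold lay mostly on one side: 69 genes (0.529%) were higher and 313 (2.4%) lower. All differences are October minus June on the scale of log2(value + 1), where changes of weakly expressed genes come out too small.

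Of the pathway lists, immediate early genes, which serum, stretch or stress switch on within minutes, had the lowest median, -1.09. Adipogenic genes (-0.44) and collagens (-0.41) came next. Cell cycle genes (0.61) and cholesterol synthesis genes (0.50) had the highest medians. Ribosomal protein genes had a median of 0.02, with 3 of 72 called higher and 2 lower. The counts of list members below stand beside 22.7% of all tested genes that rose and 25.6% that fell.

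**Figure D1:**
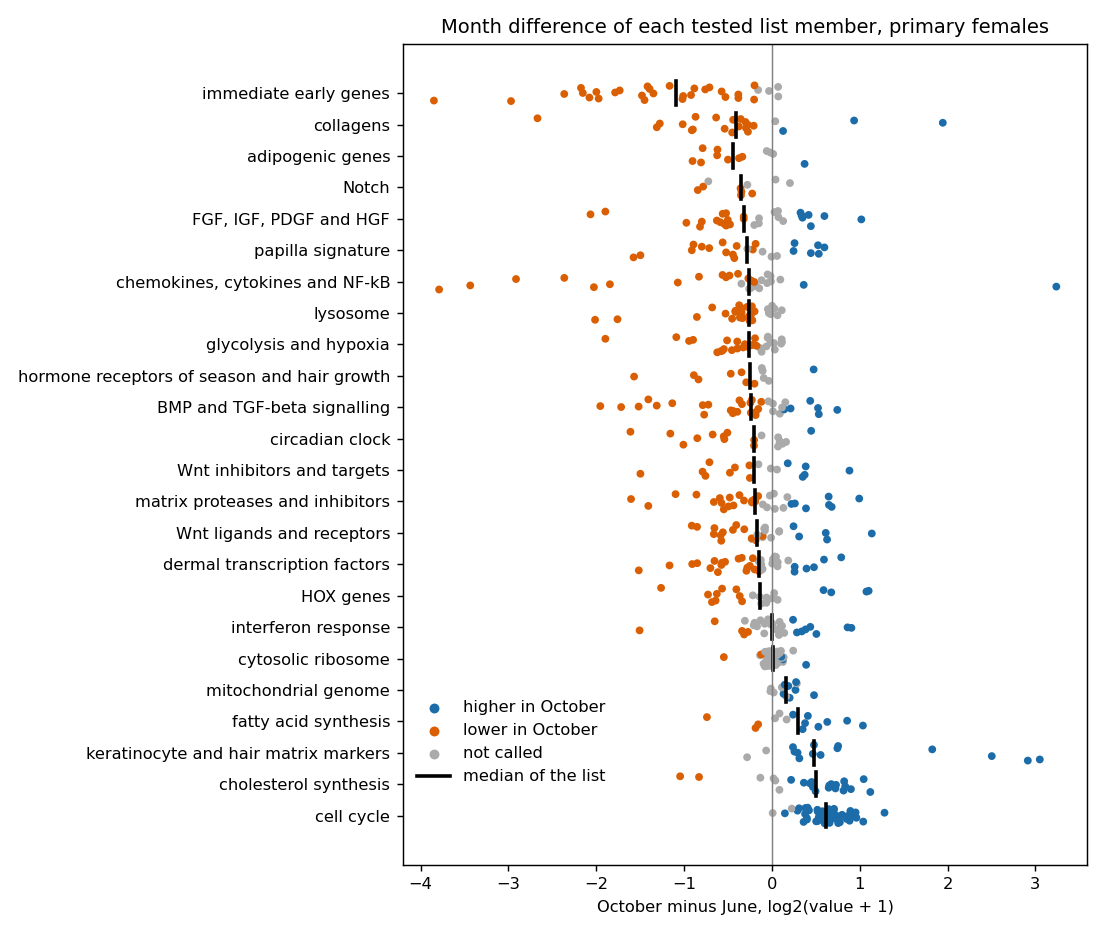
October minus June difference of log2(value + 1) in primary females (x axis) for every tested member of 24 gene lists (y axis), 1 point per gene, blue where called higher, orange where called lower and grey where not called; the black bar is the list's median. Immediate early genes (median -1.09) and cell cycle genes (median 0.61) lie at the ends, and ribosomal protein genes crowd around 0.

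Immediate early genes were nearly all lower in October. Of 32 tested, 28 fell and 0 rose, against 25.6% of all tested genes that fell, and 18 fell by at least 2-fold, against 2.4%. The falls ran from -0.20 to -3.85, with a list median of -1.09. FOSB (gene ID 100860839), a subunit of the AP-1 transcription factor, had values of 180, 181 and 188 in the June libraries and 11.4, 11.3 and 12.7 in the October libraries. That is a difference of -3.85 (SE 0.06, adjusted p = 1.23e-22), with no overlap between the months. In 3307 of the 13049 tested genes every October library lay below every June library. FOS (gene ID 102171520), its partner gene, had 397, 387 and 374 in June against 50.7, 46.9 and 47.6 in October, a difference of -2.97 (SE 0.04, adjusted p = 4.78e-23).

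Further members showed the same split between months. EGR1 (gene ID 102188309), a zinc finger factor induced by growth signals, stood at 542, 544 and 548 in June and 126, 122 and 137 in October, a difference of -2.08 (SE 0.05, adjusted p = 9.80e-20). ZFP36 (gene ID 102183627), an RNA-binding protein that speeds the decay of cytokine messages, went from 216, 213 and 205 to 47.2, 43.4 and 47.6, a difference of -2.17 (SE 0.05, adjusted p = 6.59e-19). In each of these 4 genes the libraries of a month lay close together and far from those of the other month. They were named for the smallest p of the list, so this follows from the choice. The 4 members that were not called were EGR3 (0.07), KLF10 (-0.03), DUSP2 (-0.16) and SRF (0.07), the last of which encodes a factor that drives many of the others.

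Most immediate early genes fell further in primary females than in either closest comparison. In primary males the list median was -0.01 and in secondary females -0.11. By the test of the difference between the pairs, 28 of the 32 fell below the male month difference, against 17.7% of all tested genes, and 26 below that of secondary females, against 20.7%. FOS differed by -1.04 in primary males and by 0.40 in secondary females, and both differ from the -2.97 of primary females (adjusted p = 6.31e-17 and 2.78e-21). FOSB, at -0.42 in primary males, moved the opposite way in secondary females, at 1.10. The June level set primary females apart for FOSB: the other 7 groups of the series had means between 11.8 and 45.8, against 183 in the June libraries of primary females.

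**Figure D2:**
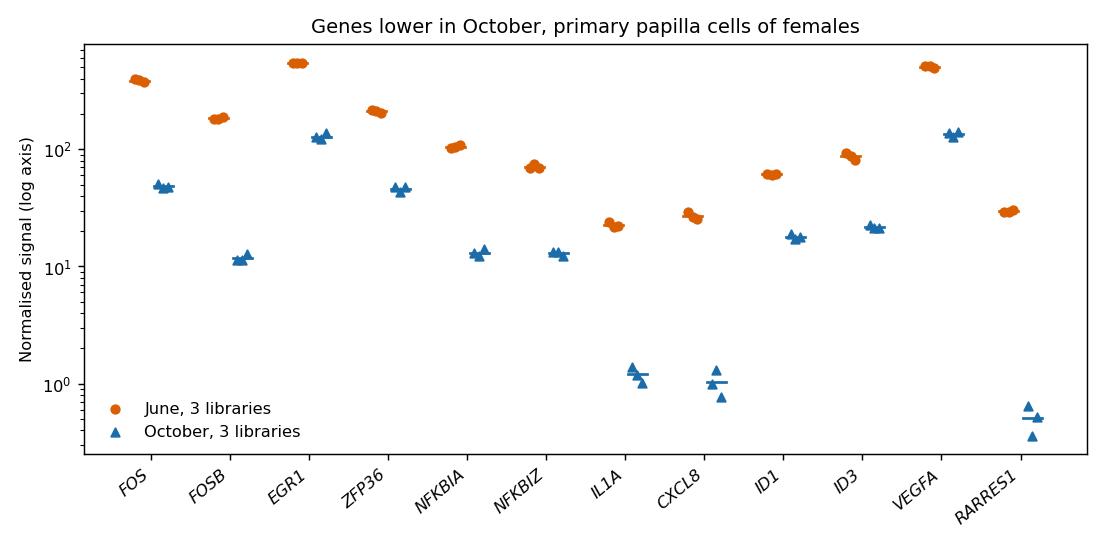
Normalised signal (log axis) of 12 genes in the 3 June libraries (orange circles) and the 3 October libraries (blue triangles) of primary females, with a bar at each group's mean. In all 12 every June library lies above every October library, from RARRES1 (29.1 to 30.3 against 0.36 to 0.65) to VEGFA (498 to 512 against 128 to 141). The same held for 3307 of the 13049 tested genes.

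The next list holds chemokines, cytokines and genes of NF-kB, a transcription factor behind many inflammatory genes. Of its 28 tested genes 15 fell, 7 of them by at least 2-fold, 2 rose and 11 were not called, against 25.6% of all tested genes that fell. Those not called include the NF-kB subunits NFKB1 (-0.01), RELA (-0.12) and RELB (0.10) and the target genes BIRC3 (-0.02) and SOD2 (-0.05). NFKBIA (gene ID 102169137), the inhibitor that NF-kB itself induces, had 103, 104 and 109 in June and 13.1, 12.2 and 14.1 in October, a difference of -2.91 (SE 0.06, adjusted p = 1.11e-19). NFKBIZ (gene ID 102186434), a nuclear cofactor of the same family, went from 68.6, 74.3 and 69.0 to 13.2, 13.3 and 12.3, a difference of -2.36 (SE 0.06, adjusted p = 2.29e-18). In primary males these genes differed by only -0.29 and -0.14, and in secondary females they stood higher in October, at 0.39 and 0.79. The difference between primary females and each of these pairs was called for both genes. The list median, however, was -0.26 in primary females, -0.28 in primary males and 0.01 in secondary females. Month differences of primary females lay below those of males in 10 of the 28 genes and above in 5, against 17.7% and 19.1% of all tested genes. Against secondary females 13 lay below and 2 above, against 20.7% and 19.5%.

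Of the cytokines, IL1A (gene ID 100861289), the interleukin-1 alpha precursor, had 24.1, 21.9 and 22.3 in June and 1.39, 1.19 and 1.02 in October, a difference of -3.43 (SE 0.11, adjusted p = 2.98e-17). CXCL8 (gene ID 102178438), the neutrophil attractant interleukin-8, went from 28.9, 26.4 and 25.3 to 1.00, 1.31 and 0.77, a difference of -3.79 (SE 0.12, adjusted p = 2.98e-17). CXCL8 differed by -3.69 in secondary females, where the test of the difference was not passed (adjusted p = 0.666), and by -2.29 in primary males. For IL1A the other pairs stood at -0.69 and 0.15.

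One chemokine of the list rose more than any other named gene. CCL17 (gene ID 108638110), which attracts T cells through the receptor CCR4, had 3.45, 4.64 and 2.42 in June and 44.8, 35.6 and 42.1 in October, a difference of 3.24 (SE 0.28, adjusted p = 8.73e-09). The other 7 groups of the series had means between 2.55 and 6.62, well below the October libraries of primary females. The month difference was -0.48 in primary males and 0.10 in secondary females, and both differ from that of primary females (adjusted p = 2.31e-07 and 2.22e-06).

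Interferon-response genes did not move as a block. Of 32 tested, 8 rose and 5 fell, with a median of 0.01. IFI6, an interferon-induced mitochondrial protein, rose from 286, 271 and 257 to 550, 481 and 497, a difference of 0.91 (SE 0.07, adjusted p = 1.70e-10). IRF1, a transcription factor shared by interferon and NF-kB signalling, fell from 21.5, 18.3 and 22.1 to 6.63, 6.21 and 6.96, a difference of -1.51 (SE 0.08, adjusted p = 1.68e-13). The list fell in both other pairs, with medians of -0.36 in primary males and -0.31 in secondary females. The month difference of primary females lay above that of males for 19 of the 32 genes, against 19.1% of all tested genes, and above that of secondary females for 17, against 19.5%.

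Markers of immune cells were low, and some of them fell. Of 5 tested, 3 fell (CD14, CD68 and CSF1R) and 0 rose, against 25.6% and 22.7% of all tested genes. CD3D (-0.02) and TYROBP (0.12) were not called. The 13 listed markers summed to 26.4 to 27.3 in June and 14.8 to 16.1 in October. CD14, a coreceptor for bacterial lipopolysaccharide that fibroblasts also express, made up much of it, at 13.9, 14.0 and 14.7 in June and 8.02, 8.84 and 9.30 in October. The T and B cell genes CD2 and MS4A1 were listed at 0 in all 6 libraries, and PTPRC, which all leukocytes carry, did not exceed 0.02. CSF1R, the macrophage growth factor receptor, fell from between 1.81 and 2.34 to between 0.20 and 0.42. The part of these cells in the fall of the cytokine and lysosome genes was not tested.

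Several of the largest falls lay outside any list. RARRES1 (gene ID 102180972), a membrane protein induced by retinoic acid, had 29.4, 29.1 and 30.3 in June and 0.65, 0.36 and 0.52 in October, a difference of -4.34 (SE 0.10, adjusted p = 1.15e-19), the largest fall among the named genes. GMFG (gene ID 102183628), a regulator of branched actin, went from 17.2, 17.3 and 14.5 to 0.42, 0 and 0.32, a difference of -3.81 (SE 0.17, adjusted p = 2.17e-14). In both genes it was again the June libraries of primary females that stood apart: the other 7 groups had means of 0.51 to 2.72 for RARRES1 and 0.12 to 0.73 for GMFG.

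Among the other large falls, TRPC4, a cation channel, had 8.58, 9.63 and 8.38 in June and at most 0.07 in October, a difference of -3.23 (SE 0.08). AGTR1, the angiotensin II receptor, went from 31.7, 28.1 and 25.4 to 3.00, 5.22 and 2.88, a difference of -2.67 (SE 0.12). LY6E, a lipid-anchored surface protein, fell by 3.04, and RFTN1, a lipid raft protein, fell by 2.71. NRN1, neuritin, was at 6.27, 5.95 and 5.45 in June and at 0.05, 0 and 0 in October. These falls were partly shared: TRPC4 and AGTR1 differed by -3.16 and -2.49 in secondary females, and NRN1 by -2.69 in primary males, where the tests of the difference were not passed (adjusted p = 0.701, 0.388 and 0.728). ACTN2, an alpha-actinin of muscle, fell by 2.86 in primary females and differed by 1.09 and 1.07 in the other pairs. RGS16, which shortens G protein signals, fell by 2.60, with -0.09 and 0.09 in the other pairs.

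The papilla signature was mixed. Of its 30 genes 23 were tested, and 6 rose, 13 fell and 4 were not called, with a median of -0.28. Of all tested genes 22.7% rose and 25.6% fell. Both an enhancer and an inhibitor of Wnt signals were among the falls. RSPO3 (gene ID 100860772), which sharpens Wnt signals and is strong in papillae, had 276, 283 and 273 in June and 144, 154 and 143 in October, a difference of -0.91 (SE 0.04, adjusted p = 1.66e-14). WIF1, a secreted Wnt inhibitor, fell from 6.31, 8.24 and 8.73 to 2.17, 2.28 and 1.81, a difference of -1.50 (SE 0.13, adjusted p = 1.52e-09). ALPL went from 1.74, 2.44 and 1.92 to 0.04, 0 and 0, a difference of -1.58 (SE 0.09, adjusted p = 1.92e-12).

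Growth factors of the signature went both ways. IGF1, a growth factor for the hair matrix, fell from 22.5, 27.2 and 23.1 to 14.0, 14.4 and 12.2, a difference of -0.80 (SE 0.10, adjusted p = 3.27e-07), whereas it differed by 1.91 in primary males. FGF10 fell by 0.52 and VCAN fell by 0.43. FGF7, the keratinocyte growth factor, rose from 94.1, 95.6 and 80.2 to 122, 138 and 108, a difference of 0.44 (SE 0.09, adjusted p = 0.000206). BMP4 rose by 0.53, INHBA, a subunit of activin A, by 0.53, and PAPPA, a protease that frees IGF from its binding proteins, by 0.60. RSPO2 rose a little, from 7.37 to 7.95 in June to 8.89 to 9.62 in October, a difference of 0.25 (SE 0.06, adjusted p = 0.00196), whereas its difference was -2.50 in primary males. The other called genes of the signature were CRABP1 (-0.89, SE 0.20), RGS2 (-0.71), SPON1 (-0.40), WNT5A (-0.19) and TWIST2 (0.26).

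Of the signature, SOX2, LEF1, TBX18 and HEY1 were not called. SOX2 had 13.9, 10.6 and 13.1 in June and 13.1, 11.4 and 12.8 in October, a difference of -0.00 (SE 0.14, adjusted p = 0.982) whose sign changes under both other scalings. LEF1, the nuclear partner of beta-catenin, differed by 0.06 (SE 0.08, adjusted p = 0.578), with overlapping groups. TBX18 differed by -0.11 (adjusted p = 0.228) and HEY1 by -0.28 (SE 0.16, adjusted p = 0.167). HEY1 would be called without June replicate 3, at -0.53 (adjusted p = 0.00394). NOG, the BMP antagonist noggin, was low and fell by 0.44 (adjusted p = 0.0119), a call lost without June replicate 1 (adjusted p = 0.0538) or October replicate 2 (adjusted p = 0.0536). TRPS1 fell by 0.22 (adjusted p = 0.0215). Its call was lost with a common total (adjusted p = 0.0513) and without June replicate 1 or 2 or October replicate 1 or 3 (adjusted p from 0.0502 to 0.138).

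The other 7 genes of the signature did not reach the level for testing: CORIN, BMP6, HHIP, PROM1, RSPO4, SOSTDC1 and SLC26A7, none above 0.49 in any of the 6 libraries. Among the 23 tested, the month difference of primary females lay below that of secondary females in 16 and above it in 3. The shares over all tested genes were 20.7% and 19.5%. Against primary males, 11 lay below and 7 above, beside 17.7% and 19.1% of all tested genes.

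Of 36 tested transcription factors of dermal cells, 18 fell, 6 rose and 12 were not called, against 25.6% of all tested genes that fell and 22.7% that rose. TBX3, a T-box factor active in papillae, fell from 36.0, 37.8 and 34.3 to 11.3, 12.7 and 11.9, a difference of -1.52 (SE 0.05, adjusted p = 1.95e-16), and by nearly as much in primary males, at -1.48. RUNX2 (-0.65), TWIST1 (-0.61) and SNAI2 (-0.57), factors known for skeletal, mesodermal and mesenchymal programmes, fell too. Their month differences in primary males were 0.06, -0.28 and 0.47, and the difference between the pairs was called for all 3.

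Of 34 tested genes of the BMP and TGF-beta list 22 fell, 6 by at least 2-fold, and 6 rose, with a median of -0.23. ID1 (gene ID 102182889), an inhibitor of differentiation factors that BMP signals induce, had 61.8, 60.5 and 61.5 in June and 18.9, 17.1 and 17.9 in October, a difference of -1.72 (SE 0.06, adjusted p = 5.33e-16). ID3 fell from 92.8, 87.5 and 80.3 to 22.6, 21.3 and 21.1, a difference of -1.95 (SE 0.08, adjusted p = 1.44e-15). ID2 fell by 1.52 (SE 0.07). LTBP2, a matrix protein related to the TGF-beta binding proteins, fell by 1.41. The ID genes were also lower in October in the other pairs: ID1 differed by -0.94 in primary males and -2.81 in secondary females, and ID3 by -1.90 and -2.20. BMP4 itself rose, as given above.

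Wnt pathway genes went both ways. Of 27 tested ligands and receptors 13 fell and 5 rose, and of 16 inhibitors and targets 8 fell and 5 rose, against 25.6% of all tested genes that fell and 22.7% that rose. FZD5, a frizzled receptor, rose from 3.20, 2.98 and 2.62 to 7.14, 8.40 and 7.42, a difference of 1.14 (SE 0.06, adjusted p = 1.15e-12). FZD4, another frizzled (-0.66), and the WNT5A receptor ROR2 (-0.65) fell. Direct targets of the pathway parted: AXIN2, a feedback inhibitor used as a readout of beta-catenin, rose from 0.92, 1.02 and 1.01 to 2.90, 2.31 and 2.79, a difference of 0.88 (SE 0.09, adjusted p = 4.88e-08), whereas MYC fell by 0.71 (SE 0.06). AXIN2 rose more in the other pairs, by 1.64 and 1.69 (adjusted p of the difference 6.91e-05 and 2.96e-05). APCDD1, a Wnt inhibitor, fell by 0.79.

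Notch and hedgehog genes followed. All 6 called genes of 10 tested Notch genes fell. The ligand JAG1 went from 39.0, 39.6 and 40.5 to 21.8, 21.2 and 22.0, a difference of -0.84 (SE 0.04, adjusted p = 1.02e-13). The target gene HES1 (-0.78) and the receptors NOTCH1 (-0.35) and NOTCH2 (-0.22) fell as well. In the hedgehog list of 8 tested genes, 5 fell and 1 rose: the transcription factor GLI3 (-0.53), the coreceptor BOC (-0.61) and the transducer SMO (-0.32) fell, and the coreceptor GAS1 rose by 0.46.

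Of 29 tested genes of the FGF, IGF, PDGF and HGF list 15 fell and 7 rose. VEGFA (gene ID 100860957), the angiogenic factor that papillae secrete, had 512, 511 and 498 in June and 138, 128 and 141 in October, a difference of -1.90 (SE 0.04, adjusted p = 2.40e-20). It was at 0.04 in primary males and -0.37 in secondary females, and both differ from primary females (adjusted p = 1.02e-17 and 5.51e-16). PDGFD, a platelet-derived growth factor, fell from 47.2, 50.6 and 43.7 to 10.2, 9.79 and 11.6, a difference of -2.07 (SE 0.10), and its differences in the other pairs were -1.50 and -1.62. The feedback inhibitors SPRY2 and ERRFI1, which damp FGF and EGF receptor signals, differed by -0.97 and -1.06. EGFR itself went from 16.9, 17.8 and 15.5 to 7.73, 9.04 and 8.83, a difference of -0.90 (SE 0.07, adjusted p = 2.54e-10), and IGF1R fell by 0.63. Of 8 tested genes of the EGF family 3 fell, and the ligand EREG rose by 0.56.

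A list of receptors and enzymes for hormones of season and hair growth had 18 genes in the files. Of these 12 were tested, 7 fell and 1 rose, against 25.6% and 22.7% of all tested genes. The enzymes DIO2, SRD5A1 and HSD17B11 and the estrogen receptor ESR1 were not called. PGR, the progesterone receptor, had 10.3, 10.2 and 8.76 in June and 2.22, 2.74 and 2.91 in October, a difference of -1.57 (SE 0.09, adjusted p = 4.06e-12). The glucocorticoid receptor NR3C1 (-0.47) and the growth hormone receptor GHR (-0.89) fell too. PGR differed by -1.06 in primary males and -0.64 in secondary females, and the fall in primary females was larger than both (adjusted p = 0.00451 and 6.06e-06). The prolactin receptor PRLR did not exceed 0.87, the melatonin receptor MTNR1A did not exceed 0.07, and MTNR1B was listed at 0, so none of them was tested.

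Genes of the circadian clock fell in 10 of 18 tested and rose in 1. NFIL3, a repressor of clock output genes, went from 72.7, 71.0 and 72.1 to 23.6, 22.9 and 22.2, a difference of -1.61 (SE 0.04, adjusted p = 2.09e-19). BHLHE40, which represses the CLOCK complex and also responds to hypoxia, went from 250, 254 and 272 to 116, 111 and 119, a difference of -1.16 (SE 0.04, adjusted p = 3.10e-16). PER1, a core repressor (-1.01), and the nuclear receptor RORA (-0.85) fell too. In the other pairs NFIL3 differed by -0.20 and 0.24 and BHLHE40 by 0.14 and 0.71, each apart from primary females by the test of the difference. The sources used here do not give the hour of sampling.

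Collagen genes were mostly lower in October. Of 22 tested 18 fell and 3 rose, and COL12A1 was not called, with a median of -0.41. COL18A1 (gene ID 102174703), the basement membrane collagen that yields endostatin, had 26.5, 24.3 and 29.0 in June and 3.66, 2.76 and 3.63 in October, a difference of -2.67 (SE 0.10, adjusted p = 3.81e-16). COL5A3 fell from 39.4, 37.7 and 42.3 to 15.3, 14.9 and 16.1, a difference of -1.31 (SE 0.06). COL8A2, a short-chain network collagen, rose from 14.2, 13.2 and 12.4 to 54.0, 53.3 and 54.6, a difference of 1.95 (SE 0.08, adjusted p = 1.82e-15), and COL14A1, a fibril-associated collagen, from between 102 and 107 to between 192 and 205. The collagen median was 0.22 in primary males and 0.05 in secondary females. Month differences of primary females lay below those of males in 14 of the 22 genes, against 17.7% of all tested genes. They lay below those of secondary females in 17, against 20.7%.

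Other matrix genes went both ways. Of 46 tested matrix glycoprotein and crosslinking genes 12 rose and 19 fell. POSTN, periostin, rose from 83.6, 86.0 and 84.8 to 229, 258 and 221, a difference of 1.46 (SE 0.06, adjusted p = 8.99e-16), and by nearly as much in the other pairs, 1.33 and 1.25. LAMA2, a laminin chain (-1.33), the small proteoglycan PRELP (-1.15) and the thrombospondin THBS2 (-0.95) fell. PRELP and THBS2 differed by 0.66 and 0.53 in primary males. Of 33 tested matrix proteases and inhibitors 19 fell and 7 rose. CTSK, the collagen-degrading cathepsin K, went from 553, 569 and 595 to 269, 275 and 257, a difference of -1.10 (SE 0.04), and ADAMTS5, an aggrecanase, fell by 1.60. Another protease of that family, ADAMTS6, rose by 0.99. Of 21 tested integrins and related receptors 9 fell and 4 rose, against 25.6% and 22.7% of all tested genes. The laminin receptor chain ITGA7 (-1.92), the integrin chain ITGA4 (-1.33), the collagen receptor DDR2 (-0.97) and the proteoglycan SDC4 (-0.88) were among the falls.

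Of 20 tested contractile genes 5 rose, 3 fell and 12 were not called, against 22.7% of all tested genes that rose and 25.6% that fell. SYNPO2, a Z-disc and actin bundling protein, fell from 55.5, 54.6 and 59.2 to 10.7, 11.7 and 12.0, a difference of -2.20 (SE 0.05, adjusted p = 2.26e-19). ACTG2, a smooth muscle actin, rose from 1160, 1124 and 1278 to 1799, 1537 and 1798, a difference of 0.53 (SE 0.06), and MYH11, smooth muscle myosin, by 0.66. In primary males both differed the other way, by -0.51 and -0.34.

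Glycolysis and hypoxia genes fell in 19 of 30 tested and rose in 0. DDIT4, an mTOR inhibitor induced by hypoxia, went from 248, 248 and 237 to 122, 102 and 120, a difference of -1.09 (SE 0.06, adjusted p = 5.54e-13), and NDRG1, another hypoxia-induced gene, fell by 0.94. The glycolytic enzyme ALDOA went from 1626, 1612 and 1693 to 1166, 1031 and 1184, a difference of -0.55 (SE 0.05). The list median was -0.26 in primary females, 0.19 in primary males and -0.18 in secondary females. For 23 of the 30 genes the month difference lay below that of males, against 17.7% of all tested genes.

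Of 29 tested lysosome genes 21 fell and 0 rose, among them GPNMB, a glycoprotein of lysosomes and melanosomes, from 52.1, 54.1 and 54.9 to 12.9, 12.8 and 12.0, a difference of -2.01 (SE 0.07). LAPTM5 (-1.76), CTSS (-0.85) and the transcription factor TFE3 (-0.68) fell too. LAPTM5 and CTSS are known mainly from immune cells. The lysosome list median was -0.26 in primary females, -0.31 in primary males and -0.02 in secondary females. Month differences of primary females lay below those of males in 3 of the 29 genes and above in 9, against 17.7% and 19.1% of all tested genes. Against secondary females 18 lay below and 0 above, against 20.7% and 19.5%. Of 15 iron genes 6 fell and 1 rose. The ferritin chains FTH1 (-0.61) and FTL (-0.48), which store iron, and the iron exporter SLC40A1 (-1.21) fell. The ferritin receptor SCARA5 went from 8.27, 9.81 and 9.28 to 1.09, 0.87 and 1.12, a difference of -2.32 (SE 0.09). Of 12 adipogenic genes 8 fell and 1 rose, among them the regulators CEBPB (-0.90) and CEBPD (-0.50) and the lipid droplet gene PLIN2 (-0.62).

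Of 30 tested genes of ER stress and the amino acid response, 15 fell and 5 rose, against 25.6% and 22.7% of all tested genes. SLC7A11, the cystine importer (-1.46), SLC7A5, an importer of large amino acids (-0.82), HERPUD1 (-0.65) and the chaperone HSPA5 (-0.40) fell. The small heat shock protein CRYAB went from 92.8, 93.4 and 115 to 34.8, 27.4 and 33.6, a difference of -1.62 (SE 0.08), whereas HSPH1 and DNAJB1 rose by 0.56 and 0.27. Of 14 tested heat shock chaperones 5 rose and 2 fell, against 22.7% and 25.6% of all tested genes. In the list of 11 tested prostaglandin genes, 3 fell and 2 rose, close to the 25.6% and 22.7% of all tested genes. The synthases PTGES and PTGS2 differed by -0.81 and -0.56. PTGS2 differed by 1.06 in primary males and 1.87 in secondary females, both apart from primary females by the test of the difference.

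Genes of the cell cycle rose together. Of 54 tested 52 rose and 0 fell, against 22.7% of all tested genes that rose, by 0.15 to 1.28, with a median of 0.61. E2F1 (0.23, adjusted p = 0.0993) and CCNE1 (0.01) were not called. CDC20 (gene ID 102171483), an activator of the anaphase-promoting complex, had 11.6, 11.3 and 13.5 in June and 27.9, 24.0 and 26.1 in October, a difference of 1.04 (SE 0.06, adjusted p = 6.68e-12). PRC1 (gene ID 102187438), a microtubule bundler of the dividing cell's midzone, went from 13.2, 14.8 and 13.8 to 25.3, 27.8 and 24.8, a difference of 0.85 (SE 0.06, adjusted p = 3.61e-11). NDC80, of the kinetochore, and CCNB1, the mitotic cyclin B1, rose by 0.92 and 0.77. The groups did not overlap in any of the 4, which were named for their small p. In 2866 of the 13049 tested genes every October library lay above every June library.

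In primary males the list median was 0.60, and the month difference of primary females lay above that of males in 8 of the 54 genes and below it in 8. The shares over all tested genes were 19.1% and 17.7%. Secondary females went the other way, with a median of -1.10. In 53 of the 54 genes the month difference of primary females lay above that of secondary females, against 19.5% of all tested genes. For CDC20 the values were 1.04 in primary males and -1.48 in secondary females. Of 21 inhibitors of proliferation and p53 targets 9 fell, 3 rose and 9 were not called. BTG2, an antiproliferative p53 target, went from 64.2, 63.5 and 65.0 to 23.8, 23.3 and 23.2, a difference of -1.42 (SE 0.05). GDF15, a stress cytokine (-1.93), the growth arrest gene GADD45A (-0.98) and the kinase PLK2 (-0.55) fell too.

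Cholesterol synthesis genes rose in 17 of 23 tested and fell in 2, with a median of 0.50. HMGCS1 (gene ID 102176561), the synthase at the pathway's entry, had 71.1, 74.5 and 74.1 in June and 166, 161 and 154 in October, a difference of 1.12 (SE 0.05, adjusted p = 5.28e-14). FDPS, which makes farnesyl diphosphate, rose by 0.72. One of the 2 falls was MYLIP, which marks the LDL receptor for degradation rather than making sterols. It went from 82.3, 81.9 and 74.3 to 36.6, 40.6 and 36.9, a difference of -1.04 (SE 0.06, adjusted p = 1.53e-12). The medians were 0.46 in primary males and 0.28 in secondary females. Of 14 fatty acid genes 8 rose and 3 fell: the desaturases SCD and FADS1 rose by 1.04 and 0.63, and ME1, which supplies NADPH, fell by 0.74.

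Genes of the mitochondrial genome rose in 7 of 13 tested and fell in 0, by 0.13 to 0.48, with CYTB, of respiratory complex III, from 8092, 8452 and 8367 to 10001, 10088 and 10052. Of 19 tested nuclear genes of oxidative phosphorylation 6 rose and 1 fell. The larger mitochondrial share in October, given above, is made of these same genes.

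Keratins of simple and basal epithelium rose from near 0. KRT5 (gene ID 102175207) and KRT14 (gene ID 102178106), partners in basal keratinocytes, had 1.61, 1.94 and 1.80 and 0.34, 0.30 and 0.33 in June. In October they had 17.9, 19.7 and 22.5 and 9.15, 10.1 and 10.7, differences of 2.91 (SE 0.09, adjusted p = 2.86e-17) and 3.05 (SE 0.10, adjusted p = 4.27e-17). KRT19, of simple epithelium and follicle stem cells, went from 0.55, 0.88 and 1.40 to 10.3, 11.2 and 13.2, a difference of 2.71 (SE 0.13). KRT8, another simple keratin, went from 0.85, 0.93 and 0.94 to 10.2, 9.40 and 9.85, a difference of 2.50 (SE 0.09), and SFN, an epithelial 14-3-3 protein, from at most 0.36 to between 3.09 and 3.79. Reads of keratin paralogs can be hard to place, and the sources used here do not say how they were divided.

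Across the list of keratinocyte and hair matrix markers 13 of 15 tested genes rose and 0 fell, against 22.7% of all tested genes that rose. KRT18, the usual partner of KRT8, stood at 3.64 to 4.47 in June and 2.86 to 3.51 in October and was not called, and neither was DSC3. The list median was 0.48 and becomes 1.31 with a pseudocount of 0.1, since most members were weak. The 19 listed markers summed to 36.8 to 38.7 in June and 90.4 to 93.1 in October. MSX2, a homeobox gene that the hair matrix shares with mesenchyme, made up 24.3 to 26.8 of the June sum and 35.4 to 38.1 of the October sum. EPCAM and CDH1, adhesion genes of epithelial cells, did not exceed 1.01 and 1.29. The suprabasal keratin KRT1 and the inner root sheath keratin KRT25 were listed at 0 in all 6 libraries, and TP63, of basal keratinocytes, did not exceed 0.49. The part of these markers in the rise of the cell cycle genes was not tested.

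Markers of further cell types gave few tested genes. Of 10 tested markers of fibroblasts between follicles 5 fell and 2 rose: DPP4 (-0.63) and the proteoglycan DCN (-0.37) fell, and COL14A1, given above, rose. DCN and DPP4 rose in primary males, by 1.86 and 1.35. Both pericyte markers CSPG4 (-0.76) and NOTCH3 (-0.35) fell, and MCAM, at most 1.50 in any library, rose by 0.51. The endothelial gene FLT1 went from between 2.51 and 2.83 to between 0.85 and 1.17, a difference of -0.88 (SE 0.08). MBP, of myelinating cells, fell from 17.7, 16.1 and 19.3 to 8.71, 7.17 and 8.20, while the Schwann cell gene CDH19 was listed at 0. The muscle genes DES (-0.77) and TNNT3 (-0.84) fell, with the muscle factors MYOD1 and MYOG listed at 0.

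KRT5 was higher in October in the other pairs as well, to different levels. KRT5 had a mean of 18.9 in June and 27.9 in October in primary males, a month difference of 0.55, and of 0.55 and 197 in secondary females, a difference of 7.00. Both differ from primary females (adjusted p = 6.29e-13 and 5.30e-17). The median of the keratinocyte list was 0.48 in primary females, 0.20 in primary males and 1.71 in secondary females.

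**Figure D3:**
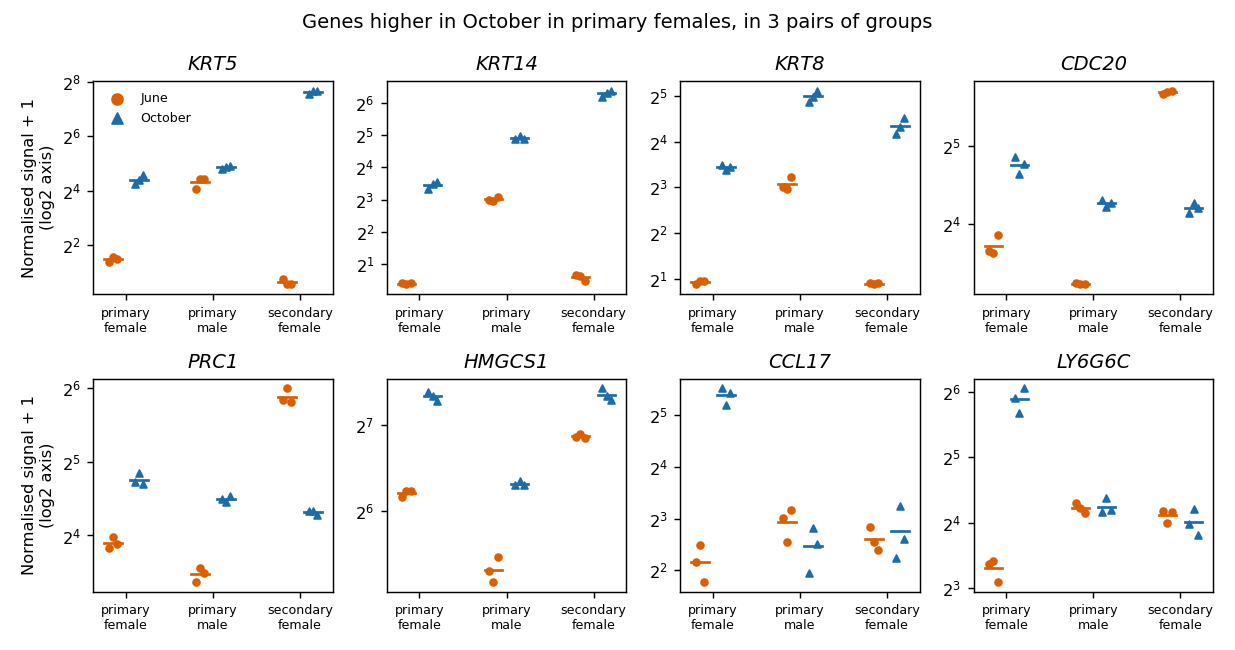
Normalised signal plus 1 (log2 axis, own range in each panel) of 8 genes in the 3 June libraries (orange circles) and 3 October libraries (blue triangles) of primary females, primary males and secondary females, with a bar at each group's mean. The 3 keratins shown were higher in October in each pair of groups, CDC20 and PRC1 in the primary pairs and lower in the secondary pair, and CCL17 and LY6G6C stood apart in the October libraries of primary females.

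Some large rises were much smaller or absent in the other pairs. LY6G6C (gene ID 102179717), a lipid-anchored protein of the Ly6 family, had 9.38, 9.73 and 7.54 in June and 59.0, 50.1 and 65.5 in October, a difference of 2.58 (SE 0.11, adjusted p = 4.96e-15). The other pairs stood at 0.02 and -0.11. EDN1, the peptide endothelin-1, went from 5.28, 5.52 and 5.20 to 19.8, 19.6 and 19.4, a difference of 1.70 (SE 0.06), against 0.18 and -0.04. DMRT2, a transcription factor, went from 1.24, 0.76 and 1.31 to 9.55, 9.39 and 10.4, a difference of 2.36 (SE 0.11), against -0.06 and 0.77. For these 3 genes the difference from both pairs was called.

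Others were shared in part. C1QTNF3, a secreted protein of the adiponectin family, went from 7.16, 6.85 and 6.85 to 39.3, 42.6 and 36.0, a difference of 2.34 (SE 0.09), and by 3.58 in secondary females. MAP1LC3C, an autophagy protein, rose by 2.34 and by 1.98 in secondary females. ANKRD1, a target of the mechanosensitive coactivator YAP, went from 35.1, 35.1 and 35.7 to 120, 108 and 110, a difference of 1.64 (SE 0.04), against 0.48 in primary males and -0.57 in secondary females. IGIP rose by 1.62 (SE 0.22), with June replicate 3, at 48.1, well above the others at 23.8 and 25.9.

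KCNJ5 and SORBS2 rose in primary females and fell in primary males. KCNJ5, a potassium channel subunit, went from 0.28, 0.29 and 0.51 to 5.02, 5.98 and 6.09, a difference of 2.30 (SE 0.10, adjusted p = 2.35e-14). In primary males it went from a mean of 4.83 to 0.24, a month difference of -2.23. KCNJ5 stayed near 0 in secondary females, with means of 0.05 in June and 0.24 in October. SORBS2, an adaptor of the actin cytoskeleton, went from 2.26, 2.81 and 2.38 to 9.60, 9.62 and 9.83, a difference of 1.62 (SE 0.08). It fell from a mean of 28.5 to 3.58 in primary males and from 9.34 to 1.67 in secondary females.

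HOX genes, which record the position of a cell along the body, rose in 4 and fell in 9 of 22 tested. Of all tested genes 22.7% rose and 25.6% fell. HOXC8 went from 92.8, 85.0 and 89.9 to 142, 145 and 142, a difference of 0.68 (SE 0.04), and HOXC9 from 12.5, 13.8 and 13.5 to 28.9, 29.4 and 29.0, a difference of 1.08 (SE 0.07, adjusted p = 7.70e-12). HOXC4 (-0.73) and HOXD9 (-1.26) were among the falls. The sources used here do not give the body site of the samples.

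Across all genes the month difference of primary females was only partly that of the other pairs. In primary males 7241 genes were called (55.5%) and in secondary females 6699 (51.3%). With primary males 3434 genes were called in the same direction, 54.6% of the calls in females and 47.4% of those in males, and 794 in the opposite direction. With secondary females 2732 were called in the same direction, 43.4% and 40.8% of the calls, and 1094 in the opposite one. Across the 13049 genes the differences correlated with r = 0.38 and r = 0.29. No library is shared between these differences, but all 24 passed through one normalisation and genes are not independent.

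Tested directly, the month difference of primary females lay above that of primary males in 2488 genes (19.1%) and below it in 2311 (17.7%). With each library set to a common total, the split turned to 1863 above and 2880 below. Against secondary females it lay above in 2549 genes (19.5%) and below in 2703 (20.7%). Of the 382 genes that changed by at least 2-fold in primary females, 315 differed from primary males and 330 from secondary females. These genes were chosen by the same primary female values, so a share above that of all tested genes (4799 and 5252 of 13049) follows from the choice.

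**Figure D4:**
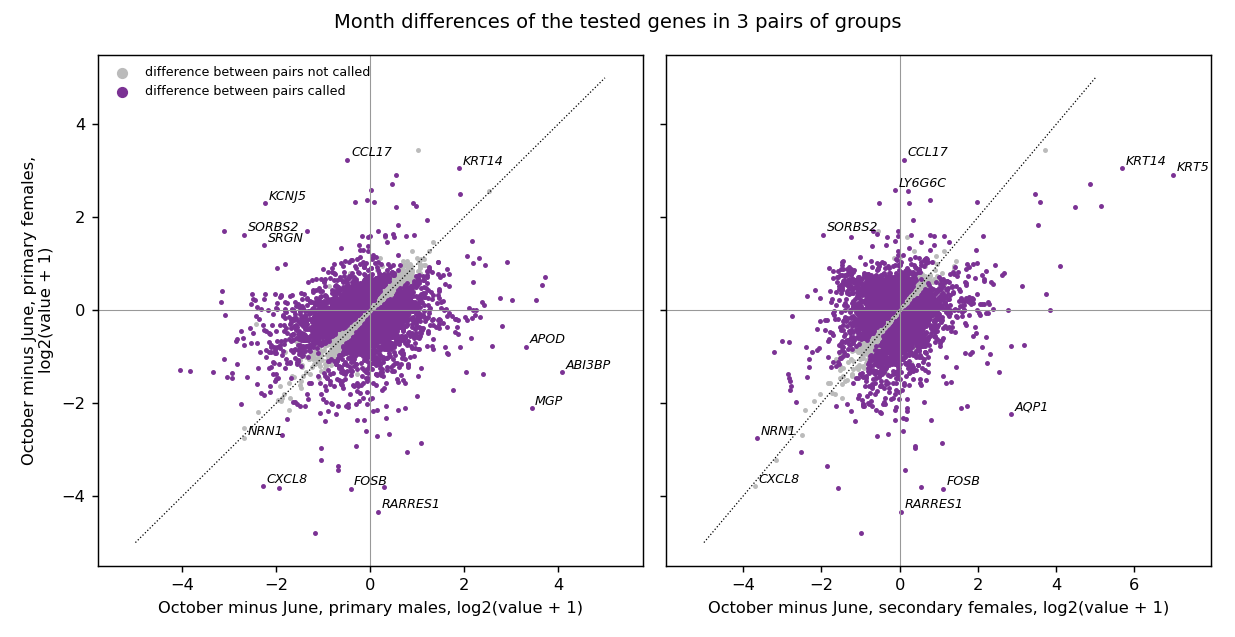
October minus June difference of log2(value + 1) in primary females (y axis) against that in primary males (left) and in secondary females (right), 1 point per tested gene, purple where the difference between the 2 pairs was called and grey where it was not; the dotted line marks equality. Points spread widely around the line (r = 0.38 and 0.29), with FOSB and RARRES1 low in primary females alone and KRT5 far to the right in secondary females.

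Some of the genes furthest from another pair fell in primary females and rose in that pair. MGP, matrix Gla protein, an inhibitor of calcification, went from 7.71, 8.28 and 7.52 to 1.08, 0.81 and 1.26, a difference of -2.11 (SE 0.18, adjusted p = 1.62e-09), whereas it rose by 3.44 in primary males and 1.57 in secondary females. In secondary males MGP fell as well, from a mean of 8.45 in June to 1.74 in October. ABI3BP, a matrix protein, fell by 1.33 and rose by 4.09 and 2.53. The lipocalin APOD fell from 136, 137 and 119 to 75.5, 82.6 and 67.5, a difference of -0.79 (SE 0.07), and rose by 3.32 and 2.09. AQP1, a water channel, fell from 81.5, 78.0 and 89.5 to 16.1, 16.2 and 18.3, a difference of -2.23 (SE 0.08), fell by 0.72 in primary males and rose by 2.84 in secondary females.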

How the data were processed

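RNA of 24 libraries was measured by RNA-seq, and the 6 libraries of primary follicles of females were compared by month within a fit of all 24. Per the labels' protocols, RNAiso Plus served for extraction and an NEBNext Ultra kit for paired-end sequencing. The submitters' processing notes name kallisto 0.46.1 (a quantifier by pseudoalignment) and sleuth 0.30.0 without their roles. The sources used here do not give build, transcript set, filters, strand or depth. The values the authors deposited are a normalised signal with 2 decimals for 20326 genes. They are not counts, so no count test was run and no interval or detection limit is given.

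The 13049 genes that reached a value of 1 in 3 libraries entered the fit. It was made on log2(value + 1) with limma 3.58.1 and statmod 1.5.0 under R 4.3.3, using 1 mean per group, a variance trend and robust estimation. A gene was called at a Benjamini-Hochberg adjusted p under 0.05 over all genes tested. The difference between 2 month differences was tested as an interaction in the same fit. Data simulated for this comparison held 13049 genes. The fit recovered 31 of 50 genes changed 1.25-fold, 48 of 50 at 1.5-fold, 49 of 50 at 2-fold and 50 of 50 at 4-fold. It called 11 of 12849 unchanged genes. The changed genes were drawn only from the more strongly expressed genes of the June libraries. The recovery counts therefore say nothing about weakly expressed genes. Nor can a simulation tell whether the spread between the real libraries is technical or shared by many genes.

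The comparison, the gene lists and the tests were chosen with earlier results of these data known. Genes named are the 15 largest rises and falls with a symbol, a mean of at least 5 in one group and months that do not overlap, up to 4 called members of each list by p, all tested papilla signature genes, and the 5 largest differences each way from either other pair. A few other members were named after their values were seen: uncalled list members, and weak markers of other cells. A few genes chosen this way are not reported here. Symbols are those of the files. Of their gene IDs 20294 matched the table of assembly ARS1.2, used only for names and gene order. Alternatives were other filters, a pseudocount of 0.1, a non-robust spread, 2 other scalings, the compared groups alone, a 2-fold minimum, the replicate number as a block and each library left out.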

Additional observations from a re-analysis of the deposited data

Results flagged for a closer look

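Differences between the month difference of primary females and that of another pair of groups were tested as interactions (limma, adjusted p under 0.05), and the counts and extreme genes are given here as values. The month difference of primary females differed from that of primary males in 4799 genes and from that of secondary females in 5252.

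Against primary males, the excess on the log2 scale was 4.53 for KCNJ5, 4.30 for SORBS2, 3.72 for CCL17, 3.66 for SRGN and 3.58 for SBSPON. SRGN, the proteoglycan serglycin, rose from 36.1 to 53.8 in June to 94.5 to 141 in October in primary females and fell from a mean of 371 to 76.8 in primary males. SBSPON, a secreted somatomedin B domain protein, rose from 2.16 to 2.99 to 3.53 to 3.92 in primary females and fell from a mean of 76.6 to 7.68 in primary males. On the other side were MGP at -5.55, ABI3BP at -5.42, RARRES1 at -4.50, APOD at -4.11 and GMFG at -4.11.

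Against secondary females the excess was 3.58 for SORBS2, 3.14 for CCL17, 2.81 for KIAA1456, 2.70 for ARHGEF5 and 2.69 for LY6G6C. KIAA1456 rose from a mean of 22.5 to 68.7 in primary females and fell from 53.6 to 22.0 in secondary females. ARHGEF5, a guanine nucleotide exchange factor, rose from 7.74 to 15.3 and fell from 7.03 to 1.31. On the other side were AQP1 at -5.07, FOSB at -4.95, RARRES1 at -4.39, GMFG at -4.37 and KRT5 at -4.08.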

How the results depend on the processing

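The count of called genes in primary females (6295) ran from 4523 with the compared groups alone to 6496 with the replicate block, and from 5570 to 6266 when each library was left out. The labels do not say whether replicate numbers pair the libraries. Correlations of deviations were -0.08, 0.29 and 0.21 for the same number and -0.40 to 0.30 for different numbers. With 3 libraries a month these values are tied to one another and do not decide it. With the block 4985 and 5451 genes differed from primary males and secondary females. A 2-fold minimum left 382, 674 and 727 genes in the 3 tests. Of 203 named genes, 199 of them called, 189 kept call and direction under the alternatives run for single genes. ALPL, CSF1R, GMFG and MMP16 were not tested under the filter of 1 in 6 libraries, and the 2-fold minimum was applied only to counts. Calls were lost with the compared groups alone for EIF1AX, LIPE, MITF, NDUFS1, PLIN1, RPS13, RPS3A, SDHD, TRPS1 and WNT5A, a fit with fewer samples behind its spread. Leaving out a library ended calls of NOG and TRPS1 as given above, and of EIF1AX (October 2), LIPE (June 2, October 3), MITF (June 1, June 2, October 1, October 3), PLIN1 (June 1, October 1), RPS13 (October 3), RPS3A (June 1, June 2, June 3, October 1, October 2) and SDHD (June 3, October 2). SOX2, uncalled, changed sign with median-of-ratios scaling (0.0011) and a common total (0.014), and ran from -0.113 to 0.070 as libraries were left out. LEF1, also uncalled, ran from -0.025 to 0.136. RPS3A also lost its call with no filter (adjusted p = 0.0519) and TRPS1 with a common total (adjusted p = 0.0513). Rescaling moved the median of all genes to at most 0.015. Since depth is unknown, values near 0 carry no detection limit.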

Other observations

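Neighbouring genes rose together around LY6G6C in October, a region chosen after its values were seen. In the gene order of assembly ARS1.2, LY6G6D, LY6G6C and C23H6orf25 lie side by side, and they differed by 1.37 (adjusted p = 0.00165), 2.58 and 1.57 (adjusted p = 3.62e-10) in primary females. LY6G6D had 1.90, 2.24 and 1.57 in June and 5.09, 7.43 and 7.19 in October, and C23H6orf25 had 1.40, 1.52 and 1.00 against 5.12, 5.86 and 6.60. Their differences were -0.04 and -0.04 in primary males and -0.70 and -0.31 in secondary females. On the side of LY6G6D, the adjacent LOC102180547 rose by 0.86 (adjusted p = 0.00158), LY6G6F was too low for testing and ABHD16A rose by 0.45. Beyond C23H6orf25, DDAH2 differed by 0.19 and CLIC1 by 0.11, the latter not called. How reads were divided between such close neighbours was not tested.

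Along the HOXC cluster the difference changed sign with position, a pattern also chosen after the values were seen. In cluster order HOXC4 and HOXC5 differed by -0.73 and -0.63, HOXC6 was level at 0.03 (adjusted p = 0.625), and HOXC8, HOXC9, HOXC10 and HOXC11 by 0.68, 1.08, 1.10 and 0.59. HOXC11 was weak, at 0.20 to 0.34 in June and 0.59 to 1.17 in October. In primary males none of these genes was further from 0 than HOXC9 at -0.41. In secondary females HOXC4 and HOXC5 were lower (-1.03 and -1.23) and HOXC8 and HOXC9 higher (0.62 and 0.63), but HOXC10 and HOXC11 stood at -0.08 and -0.49.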
